A study of Mus musculus with 6 samples.

Results

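The genes described here are the 10 protein-coding genes Git1, Taok1, Nufip2, Myo18a, Phf12, Dhrs13, Flot2, Eral1, Traf4 and Nek8, which flank the microRNA locus Mir144/451 on mouse chromosome 11. They are a named list, 7 from below the locus and 3 from above it, out of 34542 genes in the count table. The list does not hold every protein-coding gene of its span (Trp53i13, Abhd15 and Pipox, for example, are left out), and it reaches farther below the locus than above it. All 10 passed the filter on low counts, which left 15105 genes to test, and all 10 also have exon and intron counts. RNA sequencing of polyadenylated RNA was done on fetal liver cells of C57BL/6J mouse embryos with the genotype miR-144/451-/- (KO, replicates 4, 5 and 6) and of wild-type embryos of the same strain (WT, replicates 1, 2 and 3). Each library started from the same number of cells. No source used here gives the age of the embryos, how the KO allele was built or how much flanking sequence it removed or left. Whether a library came from 1 embryo or a pool is not stated either, so that p-values reflect the variation among these libraries, which may be technical.

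miR-144 and miR-451 are cut from a common primary transcript that is made in large amounts in maturing red cells. MicroRNAs guide Argonaute proteins to messenger RNAs that pair with bases 2 to 8 of the microRNA, the seed, and lower their level or translation. Removing a microRNA locus also removes DNA between its neighbours, so the level of the neighbouring genes is a usual control for effects of a deletion on its surroundings. The comparison asks whether genes around the locus changed in KO livers.

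The deleted products and their seeds are given below from RefSeq (GRCm38.p6, chromosome 11, plus strand), and their seeds are searched for in the neighbours further on. Seed bases 2 to 8 of the mature forms are in capitals.
Mir144 hairpin: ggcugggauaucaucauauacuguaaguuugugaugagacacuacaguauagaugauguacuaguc
miR-144-5p: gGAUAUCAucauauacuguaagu
miR-144-3p: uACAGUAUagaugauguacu
Mir451a hairpin: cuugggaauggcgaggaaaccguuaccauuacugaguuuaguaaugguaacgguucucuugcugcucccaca
miR-451a: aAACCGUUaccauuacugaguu

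In the GENCODE annotation of build GRCm38 the interval from Mir144 to Mir451a runs from 78073005 to 78073241 on chromosome 11. Eral1 is the nearest gene above it. It lies on the minus strand at 78073376 to 78080383, so its 3' end faces the locus across 135 bases. Flot2 is the nearest member below it, on the plus strand at 78037931 to 78060434, and it ends 12571 bases before Mir144. Traf4 (78158499 to 78165589) and Nek8 (78166106 to 78176675) follow above, both on the minus strand and 517 bases apart. Below Flot2 come Dhrs13 (78032280 to 78037866), Phf12 (77982754 to 78030539), Myo18a (77763246 to 77865980) and Nufip2 (77686155 to 77741921), all on the plus strand. The farthest are Taok1 on the minus strand (77529162 to 77607815) and Git1 on the plus strand (77493562 to 77507786), which ends 565 kb from the locus. Whether the authors' counting used strand is not given. Exons of Taok1 overlap exons of Abhd15, and exons of Phf12 and Dhrs13 overlap those of Dhrs13os, so reads there could come from either gene of a pair. Nufip2 spans Cryba1 and Myo18a spans Gm10277 within introns.

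Adult globin and mitochondrial genes have no rows in the deposited gene table, so its totals are not whole-library depths. They were 40392139 to 44700229 per KO library and 24659978 to 36082084 per WT library. Mir144 had 1, 1 and 0 counts in KO replicates 4 to 6, against 51, 47 and 29 counts in WT replicates 1 to 3. Mir451 had 3, 2 and 4 counts in KO and 323, 446 and 418 counts in WT. Both were far lower in each library labelled KO. Erythroid markers were abundant in every library, with a summed level of 17488 to 20407 CPM (counts scaled to the effective library size) in KO and 23082 to 31582 CPM in WT over 12 genes matched of 14 listed. All 12 had a log2 change below 0, and 2 of them (Tfrc and Epb4.2) passed the test as lower by edgeR and 8 by DESeq2. Hepatocyte markers varied within both groups, with a mean log2 level of 7.26, 7.96 and 9.04 in KO replicates 4, 5 and 6 and 7.45, 9.41 and 6.72 in WT replicates 1, 2 and 3. None of these 20 markers passed by edgeR's quasi-likelihood test or by DESeq2, and 0 had an unadjusted p under 0.05. Macrophage, megakaryocyte, endothelial, neutrophil and mast cell markers had 0 genes called by edgeR, and DESeq2 called 1 mast cell gene lower. At an unadjusted p under 0.05 (edgeR), 1 endothelial gene was higher and 3 mast cell genes lower, beside 7.77% and 8.78% of all tested genes. All 8 neutrophil markers (median log2 change -0.467) and 7 tested mast cell markers (-0.538) were below 0, as the erythroid markers were (-0.545). Above 0 were 8 of 8 endothelial, 2 of 8 megakaryocyte and 1 of 11 macrophage markers. In a bulk sample, fewer cells of a type and less RNA per cell cannot be told apart.

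Eral1 was the member that rose by edgeR. It encodes a GTPase that binds the small ribosomal RNA of mitochondria and helps assemble the small subunit of the mitochondrial ribosome. Its level was 32.8, 32.3 and 27.7 CPM in KO replicates 4, 5 and 6, against 19.6, 15.9 and 19.6 CPM in WT replicates 1, 2 and 3. Every KO library was above every WT library, with the lowest KO value well clear of the highest WT value. The mean was 31.0 ± 2.83 CPM in KO and 18.4 ± 2.14 CPM in WT (SD, n = 3 each). The log2 change was 0.75 (SE 0.13, 95% interval 0.45 to 1.06), a 1.69-fold higher level in KO, with an adjusted p of 0.0347 by edgeR's quasi-likelihood test with Benjamini-Hochberg adjustment over all 15105 genes. A larger increase was seen in 1.47% of tested genes. Eral1 was thus 1 of 10 members called higher, beside a background of 1.83% of tested genes called higher. None of the members was called lower, against a background of 1.45%. At an unadjusted p under 0.05 edgeR had 0 members lower (background 8.78%). DESeq2 called 3 members higher (Eral1, Traf4 and Flot2) and 0 lower. It called more genes in all than edgeR did, with 655 higher and 652 lower of 15101 tested.

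The size of the Eral1 change varied little between settings, while its call changed with the libraries used, as the number of calls over all genes did. Without any 1 of KO replicates 4, 5 or 6 or WT replicates 1 or 3 the adjusted p (edgeR) was 0.0528 to 0.137, while the log2 change stayed between 0.70 and 0.82. Without WT replicate 2 it was called at a log2 change of 0.66 (edgeR adjusted p = 0.0206), and likewise without KO replicate 6 and WT replicate 2 together (edgeR adjusted p = 0.0122). Over all genes, the fits where Eral1 was not called had 5 to 54 genes called higher, against 276 in the full fit. Without WT replicate 2 there were 483, and without both libraries 580. Erythroid marker levels were lower in the KO libraries, and their part in the Eral1 result was not tested. In the fit with hepatocyte marker level as covariate the log2 change of Eral1 was 0.79. Of 15105 genes that fit called 1294 higher and 1309 lower, against 276 and 219 without the covariate, so a member's call there weighs less.

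**Figure D1:**
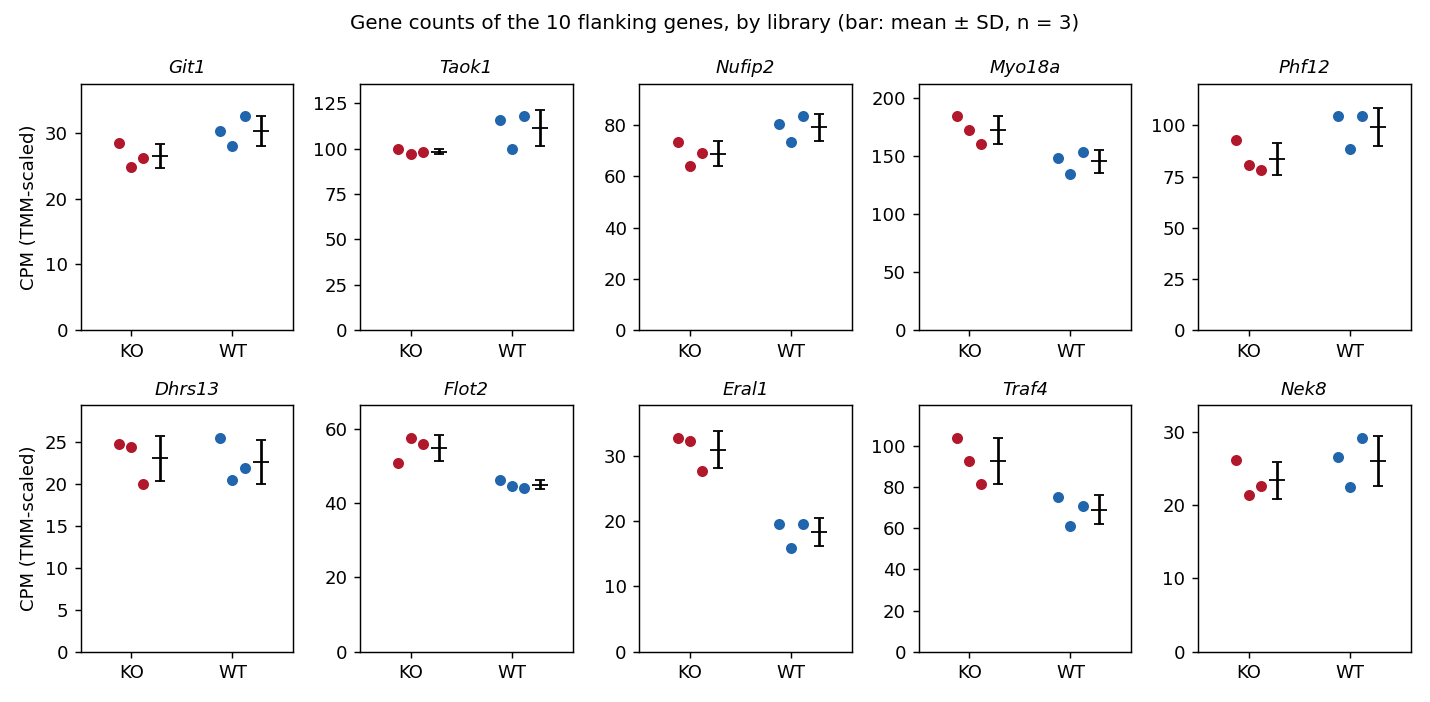
Level of each of the 10 genes in every library, in CPM of the TMM-scaled library (linear axis from 0). Points are libraries in the order KO 4 to 6 and WT 1 to 3, and bars are the mean ± SD of 3 libraries. All KO points lie above all WT points for Eral1, Traf4, Flot2 and Myo18a.

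Traf4, the next member above Eral1, encodes an adaptor of the TRAF family that is linked to cell polarity and cell contacts. It had 104, 92.5 and 81.6 CPM in KO replicates 4, 5 and 6, and 75.1, 61.1 and 70.9 CPM in WT replicates 1, 2 and 3. The groups did not overlap, although KO replicate 6 was close to WT replicate 1. The log2 change was 0.43 (SE 0.12, 95% interval 0.14 to 0.72), and it did not pass adjustment (unadjusted p = 0.0108, adjusted p = 0.137, edgeR). It was called by DESeq2 (adjusted p = 0.02997), without KO replicate 6 and WT replicate 2 together (edgeR adjusted p = 0.0292) and with the hepatocyte covariate (edgeR adjusted p = 0.00314). These settings called 655, 580 and 1294 genes higher in all, against 276 in the full edgeR fit.

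Nek8, a kinase of the primary cilium, has its 3' end 517 bases from the start of Traf4, on the same strand. Its levels were 26.2, 21.4 and 22.6 CPM in KO and 26.6, 22.4 and 29.2 CPM in WT. The groups overlapped, and the log2 change was -0.16 (95% interval -0.49 to 0.17, adjusted p = 0.690, edgeR). Within each library, which frees the comparison from library scaling, there were 398, 432 and 362 Traf4 counts per 100 Nek8 counts in KO replicates 4 to 6, against 283, 272 and 243 in WT replicates 1 to 3. The ratio of these close neighbours was higher in each KO library than in any WT library. It uses the same counts as the changes above, so it is no separate support, and it was not tested.

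Flot2 encodes flotillin 2, a scaffold protein of lipid rafts. It had 50.8, 57.7 and 55.9 CPM in KO and 46.3, 44.6 and 44.0 CPM in WT. The groups did not overlap, and the 3 WT libraries lay within a narrow range. The log2 change was 0.28 (SE 0.08, 95% interval 0.10 to 0.47, unadjusted p = 0.00961, adjusted p = 0.129, edgeR), and it was called by DESeq2 (adjusted p = 0.0330) and with the hepatocyte covariate (edgeR adjusted p = 0.0226). Eral1 and Flot2 face each other across the locus, and Eral1 counts per 100 Flot2 counts were 64.6, 56.1 and 49.6 in KO against 42.3, 35.6 and 44.6 in WT. The ratio did not overlap between the groups either, although KO replicate 6 was close to WT replicate 3. It uses the same counts as the changes above, so it is no separate support, and it was not tested.

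Myo18a, an unconventional myosin that links the Golgi and the cytoskeleton, lies 207 kb below the locus and is the most highly counted member. It had 185, 172 and 161 CPM in KO and 148, 135 and 153 CPM in WT. The groups did not overlap, and the log2 change of 0.25 (SE 0.09, 95% interval 0.04 to 0.46) did not pass adjustment (unadjusted p = 0.0285, adjusted p = 0.229, edgeR). It was called with the hepatocyte covariate alone among the settings tried (edgeR adjusted p = 0.0126).

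The 2 members between Myo18a and Flot2 did not pass the test. Dhrs13, a member of the short-chain dehydrogenase family, had 24.7, 24.3 and 20.0 CPM in KO and 25.5, 20.4 and 21.8 CPM in WT, with a log2 change of 0.03 (95% interval -0.30 to 0.35, adjusted p = 0.992, edgeR). Phf12, a PHD finger protein of SIN3 histone deacetylase complexes, had 92.7, 80.4 and 78.2 CPM in KO and 105, 88.6 and 105 CPM in WT. The log2 change of Phf12 was -0.25 (95% interval -0.50 to 0.00, adjusted p = 0.311, edgeR), and KO replicate 4 overlapped WT replicate 2. With the hepatocyte covariate Phf12 was called lower (log2 change -0.22, edgeR adjusted p = 0.0344). Dhrs13 and Flot2 are next to each other on the same strand, with log2 changes of 0.03 and 0.28, and the difference between the 2 was not tested.

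The 3 members farthest below the locus had log2 changes of -0.18 to -0.20, all short of the threshold. Nufip2, which encodes an RNA-binding partner of the fragile X protein, had 73.5, 63.9 and 69.2 CPM in KO and 80.4, 73.4 and 83.7 CPM in WT (log2 change -0.20, 95% interval -0.41 to 0.01, adjusted p = 0.315, edgeR). Git1, a GTPase-activating protein and scaffold of the GIT-PIX complex, had 28.5, 24.8 and 26.2 CPM in KO and 30.3, 27.98 and 32.6 CPM in WT (-0.19, 95% interval -0.44 to 0.05, adjusted p = 0.426, edgeR). In both genes the groups overlapped by a single KO library. Taok1, a kinase of the STE20 group that acts on MAP kinase and Hippo signalling, had 99.7, 96.9 and 98.4 CPM in KO and 116, 99.8 and 118 CPM in WT. KO replicate 4 and WT replicate 2 were nearly equal, and the log2 change was -0.18 (95% interval -0.38 to 0.02, adjusted p = 0.358, edgeR). Without WT replicate 2 Taok1 was called lower (log2 change -0.25, edgeR adjusted p = 0.0402). That fit called 1012 of 15308 genes lower, against 219 of 15105 in the full fit.

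By an unadjusted p under 0.05 (edgeR), 4 of the 10 members were higher in KO, Eral1, Traf4, Flot2 and Myo18a, where 7.77% of all tested genes were. The same 4 were the members whose groups did not overlap with KO higher, beside 11.8% of tested genes, and Taok1 was the 1 with KO lower, beside 10.9%. The median log2 change of the members was -0.0663, against -0.0297 over all tested genes, with 5 members above 0 and 5 below. Eral1 and Traf4 were above the locus and Flot2 and Myo18a below it. Of the 10 members, 5 were lowest in KO replicate 6 among the KO libraries (38% of all tested genes were) and 9 in WT replicate 2 among the WT libraries (48.4% of all tested genes were). Those are the libraries of highest hepatocyte marker level in each group. The part of hepatocyte content in the members' levels was not tested apart from the fits that model it or leave these libraries out.

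**Figure D2:**
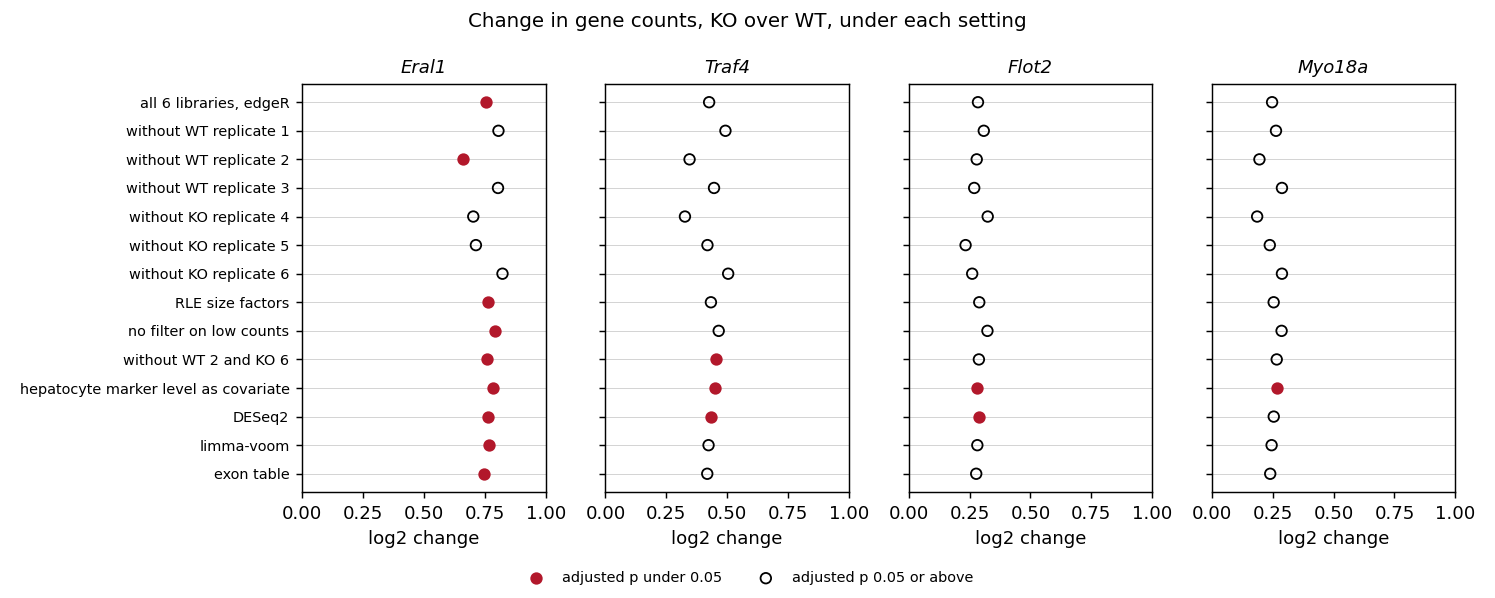
Log2 change (KO over WT) of Eral1, Traf4, Flot2 and Myo18a under each setting, with filled points where the adjusted p was under 0.05 and open points elsewhere. Every point lies above 0, between 0.19 and 0.82, while the fill changes with the libraries and the test used.

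Per kilobase of merged exons, Traf4 was the most abundant member in both groups. In KO the order was Traf4 (28.2 ± 3.43 CPM per kb), Flot2 (20.0 ± 1.29), Phf12 (17.1 ± 1.59), Eral1 (13.7 ± 1.25), Nufip2 (11.9), Dhrs13 (11.7), Myo18a (10.8), Taok1 (7.92), Git1 (5.48) and Nek8 (4.47 ± 0.475, SD, n = 3). In WT it was Traf4 (20.97 ± 2.19), Phf12 (20.2 ± 1.90), Flot2 (16.4 ± 0.445), Nufip2 (13.7), Dhrs13 (11.49), Myo18a (9.07), Taok1 (8.96), Eral1 (8.09 ± 0.944), Git1 (6.27) and Nek8 (4.99 ± 0.655). Eral1 was thus at rank 4 in KO and rank 8 in WT. The runs from Eral1 to Myo18a in KO, and Traf4 with Phf12, Nufip2 with Dhrs13 and Myo18a to Eral1 in WT, were not apart by more than their SDs between neighbours in the order. Lengths come from GRCm38 and may differ from the gene models the authors counted.

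Intron counts, which stand for unspliced RNA, asked whether the same differences were present before splicing. No member was called in introns in either direction (edgeR), where 0.237% of 11803 tested genes were called higher and 0.483% lower, and DESeq2 called 0 members too. At an unadjusted p under 0.05 Eral1 and Traf4 were higher (2 of 10 members, background 5.39%) and 0 were lower (background 5.45%). Eral1 introns had 54.9, 58.2 and 47.9 CPM (of the scaled intron library) in KO and 42.1, 41.3 and 32.6 CPM in WT. All KO values were above all WT values, and the log2 change was 0.47 (95% interval 0.09 to 0.85, unadjusted p = 0.0208, adjusted p = 0.346, edgeR). Traf4 introns had 61.1, 49.6 and 32.7 CPM in KO and 35.8, 25.4 and 19.1 CPM in WT. KO replicate 6 lay below WT replicate 1, and the log2 change was 0.84 (95% interval 0.15 to 1.53, unadjusted p = 0.0233, adjusted p = 0.359, edgeR).

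Myo18a introns had 119, 120 and 124 CPM in KO and 114, 101 and 106 CPM in WT, without overlap, at a log2 change of 0.18 (95% interval -0.09 to 0.44, unadjusted p = 0.159, edgeR). Myo18a and Eral1 were the 2 members whose introns did not overlap with KO higher, beside 9.92% of tested genes, and 0 members had KO lower, beside 7.57%. Flot2 introns, by contrast with its gene counts, overlapped widely at 87.1, 76.7 and 93.5 CPM in KO and 80.6, 75.0 and 86.6 CPM in WT (log2 change 0.09, unadjusted p = 0.537, edgeR). The other 6 members had intron changes between -0.21 and 0.10. Nufip2 introns were among the most even, at 323, 331 and 331 CPM in KO and 311, 329 and 318 CPM in WT.

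**Figure D3:**
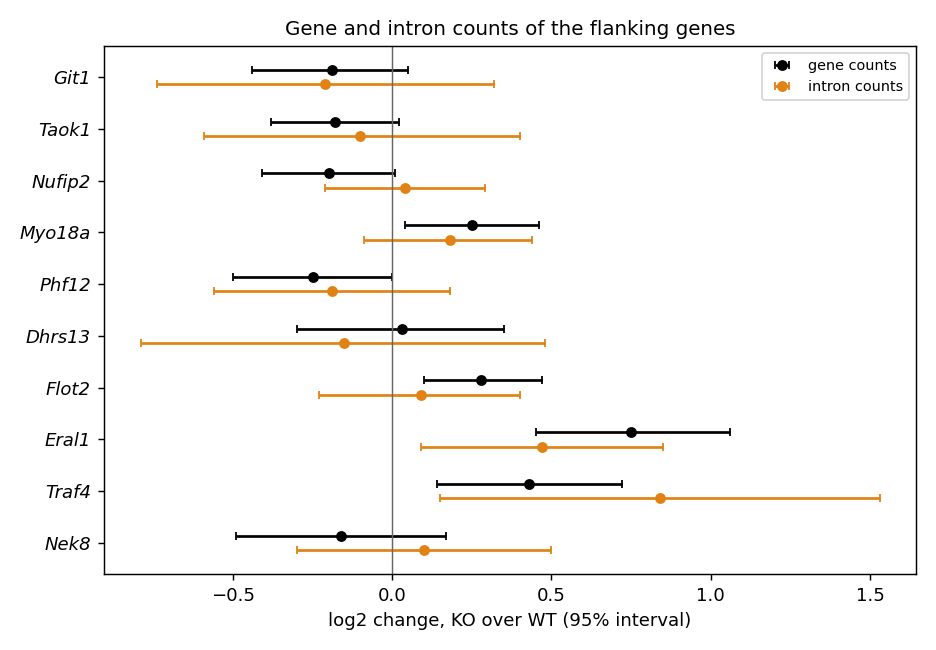
Log2 change (KO over WT) of each member in gene counts (black) and intron counts (orange), with 95% intervals from the edgeR fit. Both intervals exclude 0 for Eral1 (0.45 to 1.06 and 0.09 to 0.85) and Traf4 (0.14 to 0.72 and 0.15 to 1.53), before adjustment for the number of genes tested.

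Exon and intron counts of each gene were then compared in a joint fit. None of the members passed in either direction by edgeR's interaction test (0 of 10 higher, 0 of 10 lower), and neither did any other of 11100 genes (0% called higher, 0% called lower). At an unadjusted p under 0.05 there were also 0 members, where 1.67% of genes had the exonic change higher and 1.5% lower. DESeq2 called 37 genes higher and 2 lower but no member. For Eral1 the difference of the exonic and the intronic change was 0.28 (95% interval -0.21 to 0.77, unadjusted p = 0.220, edgeR), and for Flot2 it was 0.20 (-0.19 to 0.59). For Traf4 it was -0.41 (-1.01 to 0.19, unadjusted p = 0.154, edgeR). These intervals span 0 and are wide beside the changes themselves, so at this depth the exonic and intronic changes were not told apart.

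Introns held very different shares of the members' counts. Of the exonic plus intronic counts of Eral1, 28.9%, 23.7% and 26.1% were intronic in KO replicates 4, 5 and 6, against 30.1%, 33.8% and 32.8% in WT replicates 1, 2 and 3. Over all genes the intronic share also differed between libraries, at 21.3%, 17.0% and 18.0% in KO and 16.9%, 19.1% and 23.4% in WT, and its part in the shares of Eral1 was not tested. Nufip2 had the highest share, 49.4% ± 2.22 in KO and 47.7% ± 4.59 in WT (SD, n = 3 each), and Taok1 the lowest, 5.81% ± 1.12 in KO and 5.94% ± 0.601 in WT. Counts in introns can also come from retained introns or other transcripts there.

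Seed sites of the deleted microRNAs were searched in the longest annotated 3' UTR of each member, as perfect matches to seed bases 2 to 8. None of the 10 had a site for miR-451a (AACGGTT), which 1.7% of 20275 genes have, or for miR-144-5p (TGATATC), which 6.21% have. Dhrs13 alone had a site for miR-144-3p (ATACTGT), which 12.1% of genes have. The site begins at base 204 of a UTR of 556 bases and is shown with its surroundings, the match in capitals.
Dhrs13 site: gatatatgagATACTGTgttgc
Dhrs13, the member with this site, had a log2 change of 0.03, and Eral1, the member that rose, had 0 sites in a UTR of 676 bases. Traf4, Flot2 and Myo18a had 0 sites too. A match of letters is a description and not a measured binding site.

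The promoter windows of Eral1 and Traf4, the members with higher gene and intron counts at an unadjusted p under 0.05, are shown from RefSeq (GRCm38.p6, minus strand), each from 250 bases before the annotated start to 50 after it. Capitals mark a GATA motif (AGATAA, its variants TGATAA and AGATAG, and also TGATAG) or a CCAAT box, on either strand.
Eral1 promoter, chr11:78080334-78080633: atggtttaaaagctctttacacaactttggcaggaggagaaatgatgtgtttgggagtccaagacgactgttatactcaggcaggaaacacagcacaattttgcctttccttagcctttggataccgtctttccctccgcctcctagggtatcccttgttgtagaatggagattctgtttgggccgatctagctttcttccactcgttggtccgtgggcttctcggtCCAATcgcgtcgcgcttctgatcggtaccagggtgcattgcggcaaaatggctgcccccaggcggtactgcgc
Traf4 promoter, chr11:78165501-78165800: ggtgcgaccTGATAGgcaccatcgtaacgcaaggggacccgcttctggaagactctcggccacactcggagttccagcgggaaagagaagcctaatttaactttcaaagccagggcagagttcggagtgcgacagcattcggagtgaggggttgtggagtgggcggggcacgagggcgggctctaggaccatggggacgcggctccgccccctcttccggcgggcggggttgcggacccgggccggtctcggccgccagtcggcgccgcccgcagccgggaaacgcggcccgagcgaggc
The Eral1 window held 1 CCAAT box, as 37.4% of all windows of this length did, and no GATA motif. The Traf4 window held 1 GATA motif, as 29.8% of windows did, and 3 matches of the CACCC box (CCNCNCCC), which 49.5% of windows had. The GC content was 51.7% for Eral1 and 68.0% for Traf4, beside a median of 52.7% over all windows. The Eral1 promoter lies at the end of the gene away from the deleted locus.

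Farther out, 45 genes within 1 Mb of the locus were tested, the 10 members included. The deleted Mir144 and Mir451, both called lower, are left out of this count and of the windows. Of the other 35 genes, 1 passed as higher and 0 as lower by edgeR, beside 1.83% and 1.45% of all tested genes. An unadjusted p under 0.05 was reached by 3 higher and 3 lower genes, beside 7.77% and 8.78%. The gene that passed was Unc119, 270 kb above the locus, whose protein binds lipid-modified cargo. It had 47.8, 47.1 and 45.5 CPM in KO and 26.9, 28.7 and 25.95 CPM in WT (log2 change 0.78, SE 0.08, adjusted p = 0.0123, edgeR), without overlap. The nearest tested gene below the locus that is no member, A030003K02Rik, an antisense gene annotated as Dhrs13os, was at 1.35 ± 0.215 CPM in KO and 2.15 ± 0.753 CPM in WT (log2 change -0.66, adjusted p = 0.350, edgeR). The nearest tested one above it, Tlcd1, was at 85.9 ± 5.07 CPM in KO and 106 ± 9.47 CPM in WT (log2 change -0.30, unadjusted p = 0.0148, adjusted p = 0.161, edgeR; SD, n = 3 each).

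The same count was made by window, again without Mir144 and Mir451. Within 100 kb, 1 of 7 tested genes was called (Eral1), and within 250 kb the same count stood at 1 of 19. Over 5 Mb, 4 of 136 genes were called higher and 2 lower, and over the whole chromosome 24 of 1248 were higher and 24 lower (3.85% called in all). The median log2 change, the members included, was 0.0252 within 100 kb, 250 kb and 1 Mb alike, and -0.0257 over the chromosome. With the members left out it was -0.0626 over 12 genes within 250 kb, of which 0 were called, and 0.0253 over 35 genes within 1 Mb. Of 37 genes within 1 Mb tested in introns, the members included, 0 were called by edgeR in either direction. At an unadjusted p under 0.05, 6 were higher and 2 lower, beside 5.39% and 5.45% of all genes tested in introns. With the members left out it was 4 and 2 of 27 genes.

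**Figure D4:**
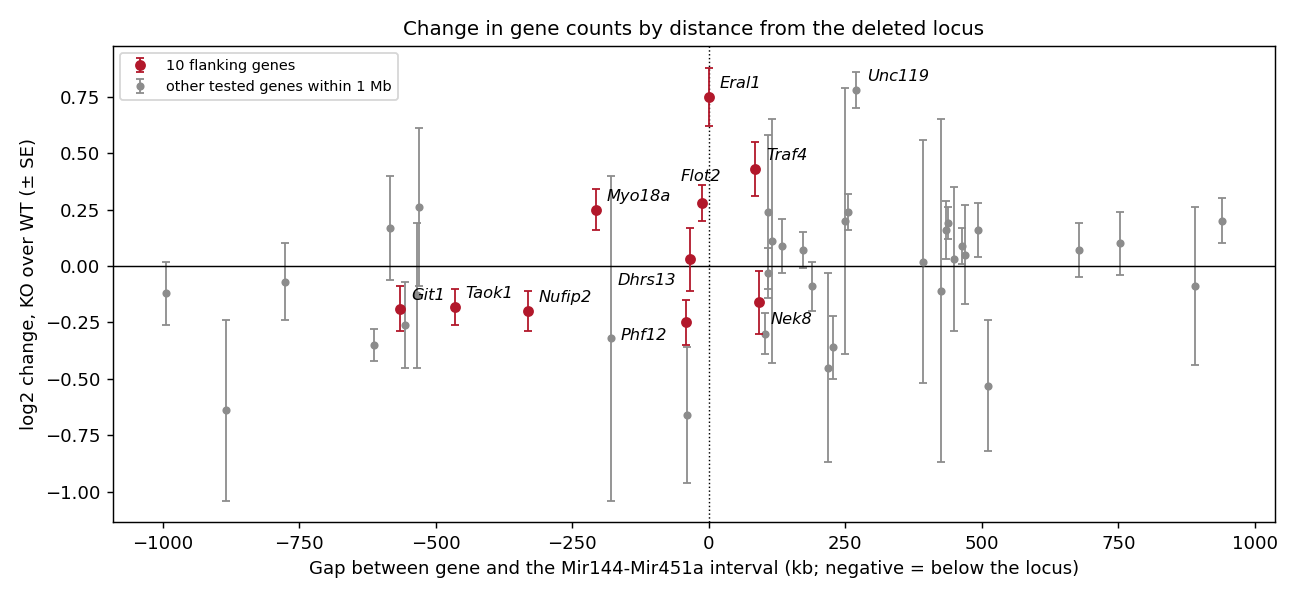
Log2 change in gene counts (KO over WT, ± SE) against the gap between a gene and the Mir144 to Mir451a interval, in kb, for the 10 flanking genes (red) and 35 other tested genes within 1 Mb (grey), without Mir144 and Mir451. Eral1, next to the locus, and Unc119, 270 kb above it, stand at 0.75 and 0.78. Genes below 0, such as Tlcd1 (-0.30), lie between them. The nearest tested genes on each side are above 0. They are Flot2 (0.28) and Traf4 (0.43) for Eral1, and Pigs (0.24) and Slc46a1 (0.02) for Unc119.

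Partners and relatives of the members were counted from fixed lists, and each list also holds the member itself. The counts of each list stand beside 1.83% of all tested genes called higher and 1.45% called lower by edgeR. DESeq2 called 655 genes higher and 652 lower of 15101. Of 10 tested genes of flotillins, caveolae and stomatins, 1 rose and 0 fell. DESeq2 called Flot1 and Flot2. The gene called by edgeR was Flot1, the partner with which Flot2 forms raft assemblies, at 54.6, 56.1 and 51.9 CPM in KO and 42.7, 40.4 and 42.5 CPM in WT (log2 change 0.37, adjusted p = 0.04997, just under the threshold, edgeR). Flot1 has 0 seed sites for the deleted microRNAs in its UTR. Both flotillin genes had higher levels in each KO library than in any WT library, as 11.8% of all tested genes did. Their log2 changes were 0.37 and 0.28, and Flot1 is the 1 that passed by edgeR.

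Of 6 tested TRAF family genes 0 passed by edgeR and 3 by DESeq2 (Traf4, Traf5 and Traf6, all higher). Over all genes DESeq2 called 655 of 15101 higher. At an unadjusted p under 0.05 edgeR had 4 higher, Traf4 itself among them, and 0 lower, beside 7.77% and 8.78% of all tested genes. The median was 0.335, beside -0.0297 over all tested genes. Traf6, an adaptor of Toll-like and interleukin-1 receptors, was at 51.6 ± 0.847 CPM in KO and 38.1 ± 3.12 CPM in WT (log2 change 0.44, adjusted p = 0.0512, edgeR). Traf5 was at 17.7 ± 1.73 CPM in KO and 10.2 ± 1.86 CPM in WT (0.80, adjusted p = 0.0664, edgeR; SD, n = 3 each). The change of Traf4 was 0.43. Traf6 and Traf5 were chosen after their values were seen, and Traf7, the most abundant of the family in KO, had a log2 change of 0.05.

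Among 13 tested genes of mitochondrial small-subunit assembly, Eral1 was the 1 that rose by edgeR and 0 fell, beside 1.83% and 1.45% of all tested genes. The median was 0.106 over the list, with 11 above 0, beside a median of -0.0297 over all tested genes. Rbfa, which binds the small ribosomal RNA as Eral1 does, was at 39.5 ± 2.69 CPM in KO and 30.2 ± 1.97 CPM in WT (log2 change 0.39, adjusted p = 0.0941, edgeR; SD, n = 3 each; chosen after its values were seen). Mrps5, the most abundant of the list, had a change of 0.04. DESeq2 called Eral1 and Rbfa.

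Of 10 tested NEK kinases and partners of Nek8, Nek9 rose (131 ± 2.14 CPM in KO, 94.8 ± 2.85 CPM in WT; log2 change 0.47, adjusted p = 0.0202, edgeR) and 0 fell. DESeq2 called Nek2 and Nek9 higher. Over all tested genes edgeR called 1.83% higher and 1.45% lower. Nek9, a mitotic kinase, has 1 miR-451a seed site in its UTR, as 1.7% of genes have, while Unc119 and Lats2 have 0 sites for the deleted microRNAs. Of 10 TAO kinase and Hippo or MAP kinase genes, Lats2, a kinase that restrains YAP, fell (12.9 ± 0.999 CPM in KO, 31.7 ± 3.41 CPM in WT; log2 change -1.29, adjusted p = 0.0111, edgeR; SD, n = 3 each) and 0 rose. DESeq2 called Lats2 and Map2k3 lower, and edgeR had 4 of the 10 lower at an unadjusted p under 0.05, beside 8.78% of all tested genes. The other TAO kinases, Taok2 and Taok3, were at -0.10 and 0.12.

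No gene passed in 5 further lists by edgeR, while DESeq2 called Arf6 lower, Fmr1, Kdm5a, Morf4l1 and Sin3b higher, and 0 myosin or DHRS genes. The counts at an unadjusted p under 0.05 stand beside 7.77% of all tested genes higher and 8.78% lower. At that threshold the 8 tested GIT-PIX-PAK genes held 0 higher and 1 lower, and the most abundant, Arf6, was at -0.32 (adjusted p = 0.138, edgeR). For the 10 FMRP and NUFIP partners it was 1 and 1, with Caprin1 the most abundant at -0.04. For the 6 class XVIII myosin genes and partners it was 1 (Myo18a itself) and 0, with Myh9 at -0.08. For the 12 PHF12 and SIN3 complex genes it was 3 and 0, with Rbbp4 at -0.32, and for the 8 DHRS genes it was 0 and 1, with Dhrs11 at -0.22. The medians of these lists ran from -0.18 to 0.00663, against -0.0297 over all tested genes.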

How the data were processed

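Fetal liver RNA of 3 KO and 3 WT samples was grouped by the genotype in the labels. The deposited tables hold raw read counts per gene symbol and, in a separate table, raw exon and intron counts, per the file headers. Per the submitters' processing notes STAR and HTSeq were used, with builds NCBIM37 and mm10 listed. No source used here gives versions, gene models, the strand setting or the definition of introns. Exon counts equal the gene counts for all 15543 genes that both tables hold. The deposited gene counts hold 0 rows of adult globin or mitochondrial genes.

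Gene, intron and exon counts were fitted over all genes with edgeR 4.0.16 (R 4.3.3), with TMM scaling, filterByExpr (minimum count 10, minimum total 15), the quasi-likelihood test and Benjamini-Hochberg adjustment at 0.05. Intervals are 95%. CPM values use the libraries and TMM factors of the fit, gene and intron tables separately. The exonic change minus the intronic change was the interaction of region and genotype, with a term for each sample. The edgeR fits of gene counts, of intron counts and of the interaction were tested on simulated data. Alternatives were other scaling, no filter, each library left out, KO replicate 6 and WT replicate 2 left out, the mean log2 CPM of hepatocyte markers (pseudocount 0.5) as a covariate, DESeq2 1.42.0 and limma 3.58.1 (voom).

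Positions come from GENCODE M21 (GRCm38), to which 29218 of 34542 symbols matched directly and 2214 by an older symbol, and sequences from RefSeq. The tables hold no coordinates. Libraries of 1 group differed by 16.7 to 157 in chi-square per degree of freedom, above counting noise, so none was a plain resequencing of another. These values do not tell separate preparations of 1 source from separate embryos. Members and lists were chosen with earlier results of these data known. Named genes are the 10 members, the microRNAs, other genes within 1 Mb that passed and the nearest on each side, and per list up to 3 genes that passed or else the most abundant. Exceptions are marked as chosen after their values were seen.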

Additional observations from a re-analysis of the deposited data

How the results depend on the processing

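All 10 members kept the direction of their gene-count change in all 13 alternatives, except Dhrs13, which was below 0 without WT replicate 2, KO replicate 4 or KO replicate 5. Members called higher numbered 0 to 1 with 1 library left out (1 in the full fit), 2 without KO replicate 6 and WT replicate 2, 4 with the hepatocyte covariate and 3 with DESeq2. Members called lower numbered 0 to 1 with 1 library left out and 1 with the covariate (0 in the full fit). Over all genes, calls higher were 276, against 5 to 483 with 1 library left out, 580 without both libraries, 1294 with the covariate and 655 with DESeq2. Calls lower were 219, against 7 to 1012, 838, 1309 and 652 in the same order, and 137 in the exon table, which tests 12032 genes. Intron calls higher were 28, against 4 to 27, then 1, 5 and 123, and intron calls lower were 57, against 6 to 121, then 0, 9 and 217. The interaction gave 0 calls either way, against 0 to 44 higher and 0 to 106 lower with 1 library left out, 9 higher with no sample term, and 37 higher and 2 lower with DESeq2.

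Changes that turned sign all stayed short of the threshold, and the cause was not tested. With 1 library left out, Dhrs13 ran from -0.0418 to 0.1231 in gene counts. In intron counts Taok1 ran from -0.3133 to 0.0007, Dhrs13 from -0.3935 to 0.0652 and Nek8 from -0.0053 to 0.1679. In the interaction Git1 ran from -0.1427 to 0.2388, Taok1 from -0.2585 to 0.1897 and Phf12 from -0.1576 to 0.1477. Without KO replicate 6 and WT replicate 2, the intron changes of Taok1, Dhrs13 and Flot2 were 0.0285, 0.0769 and -0.0831, and the interaction was -0.0684 for Git1 and -0.0252 for Dhrs13. With no filter on low counts the interaction was -0.0069 for Git1. No paired analysis was possible because KO libraries are numbered 4 to 6 and WT libraries 1 to 3. With 3 libraries a group, small changes of the members have wide intervals.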
